A study of Mus musculus with 12 samples.

Results

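The regions described here are 6300 fixed tiles of 1 kb of the mouse genome (mm10) with an intermediate level of CpG methylation in chondrocyte pellets after 1 week of culture. A tile qualified when it lay on chromosomes 1 to 19 and held 3 or more cytosines covered by 10 or more reads in all 6 methylation libraries. Its mean methylation over the 3 Week 1 libraries was 30 to 70%, it held fewer than 30 CpGs, and it lay 10 kb or more from any RefSeq transcript 5′ end. Of 71214 tiles with 3 or more shared cytosines, 26234 were distal and CpG-poor by these limits. The 6300 intermediate tiles were 24.0% of the distal CpG-poor tiles and 8.85% of all tiles. A further 17643 distal tiles lay over 70% and 2291 lay under 30%. The tiles were selected on their measured Week 1 levels, so these levels are described without a test.

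The chondrocytes came from cartilage of the femoral head and tibial plateaus of C57BL/6J mice aged 5 to 6 days, and they carried no genetic modification that the labels name. They were expanded as monolayers in DMEM/F12 with 10% FBS and then kept as pellets, a dense 3D culture in which chondrocytes mature, in the same medium with ascorbic acid and ITS (insulin, transferrin and selenium). Pellets were harvested at Week 1 (7 days) or Week 3 (21 days), with 3 libraries a week for DNA methylation and 3 a week for RNA. No in vivo cartilage or unpelleted cells enter the comparison, and nothing in the labels ties a replicate to its own animals or culture, so p-values measure only the spread between these samples.

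Methylation came from ERRBS (enhanced reduced representation bisulfite sequencing). In this assay DNA is cut by MspI at CCGG, size-selected, bisulfite-converted and sequenced. The level of a cytosine is the percentage of its reads that stay C, and the level of a tile is the mean over its cytosines. Median coverage of the cytosines shared by all libraries ran from 17 reads in Week 1 replicate 3 to 66 in Week 1 replicate 2. Week 3 replicate 2, at 21 reads, stood apart: 68.4% of the members lay between 30 and 70% in it, against 82.6 to 89.9% in the other 5 libraries. Across the 6300 members its Pearson correlation with the other libraries was 0.442 to 0.593, against 0.636 to 0.846 among the rest, where tiles of 1 library share its depth. RNA libraries held 14361717 to 19774665 counts. The 8 chondrocyte markers checked (among them Col2a1, Acan and Sox9) were above 1 CPM (counts scaled to the library's total) in all 6 RNA libraries, and Myod1 of the muscle markers and Hbb-bs of the erythroid markers were at 0. Summed over each list, the 4 muscle markers, 1 of them above 1 CPM in every library, were at 50.053 to 69.18 CPM in Week 1 and 19.2 to 21.7 CPM in Week 3. The 4 neural markers, 2 of them above 1 CPM in every library, were at 23.9 to 33.8 and then 50.3 to 59.3 CPM. The 3 erythroid markers were at 11.67 to 12.03 and then 10.99 to 11.47 CPM, and the 4 endothelial markers at 1.890 to 2.206 and then 1.498 to 2.013 CPM. Their part in the RNA results was not tested.

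Most CpGs in the mammalian genome are methylated, whereas promoters rich in CpGs are mostly not. Distal regulatory elements such as enhancers are poor in CpGs and often hold a reduced, intermediate methylation where transcription factors bind, with TET enzymes oxidising 5-methylcytosine and DNMT enzymes restoring it. In cartilage, distal elements of this kind regulate genes such as Sox9 and Col2a1. An intermediate level in bulk DNA is an average over cells, alleles and strands, and these tables do not tell apart which of them differ. No enhancer mark such as histone acetylation was measured here, so the tiles are called intermediate distal tiles and not enhancers.

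The sequences below show what such a level is made of. They are the stretches with the most measured CpGs of the tiles with 10 or more cytosines whose cytosines differed least (the first pair) and most (the second pair) from one another at Week 1. They are given 5′ to 3′ on the plus strand of GRCm38 (mm10), from RefSeq, with each CpG that was measured on either strand in capitals.
Btc intron, chr5:91368232-91368350 (+): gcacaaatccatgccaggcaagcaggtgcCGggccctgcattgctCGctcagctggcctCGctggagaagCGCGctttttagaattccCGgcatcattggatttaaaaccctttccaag
between genes near Gm30088, chr1:189582198-189582413 (+): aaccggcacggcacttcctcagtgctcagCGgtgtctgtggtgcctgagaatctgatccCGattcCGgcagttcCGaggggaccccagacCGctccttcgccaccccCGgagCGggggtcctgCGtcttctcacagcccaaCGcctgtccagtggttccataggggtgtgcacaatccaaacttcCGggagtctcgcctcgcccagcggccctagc
Kcnab2 intron, chr4:152435182-152435451 (+): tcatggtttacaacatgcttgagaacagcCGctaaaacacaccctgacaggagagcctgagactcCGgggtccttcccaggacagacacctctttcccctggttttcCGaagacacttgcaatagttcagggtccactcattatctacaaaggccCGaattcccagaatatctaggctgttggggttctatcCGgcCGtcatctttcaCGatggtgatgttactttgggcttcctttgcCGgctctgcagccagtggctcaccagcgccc
Gm10069 intron, chr6:128479104-128479397 (+): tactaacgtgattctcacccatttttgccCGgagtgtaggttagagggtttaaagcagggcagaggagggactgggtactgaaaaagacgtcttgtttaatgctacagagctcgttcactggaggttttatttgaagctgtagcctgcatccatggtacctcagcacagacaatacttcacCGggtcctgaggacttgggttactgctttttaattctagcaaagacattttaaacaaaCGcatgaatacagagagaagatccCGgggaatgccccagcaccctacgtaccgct
In the Btc stretch the 10 measured cytosines had Week 1 means from 61.9 to 78.8%, some of them above the 70% limit set for tiles. The Btc tile was at 63.2, 70.2 and 73.7% in the Week 1 libraries. The Kcnab2 tile overlaps an exon, but the stretch shown lies within an intron. The stretch held 9 measured cytosines, of which 8 were at 0 to 19.2% and the CCGG cytosine 66 bases from its start was at 56.7%, while the whole tile of 17 cytosines averaged 46.5 ± 1.55% (SD, n = 3) because other cytosines of the tile reached 98.2%.

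The next stretches belong to member tiles chosen on their difference between the weeks, none of which passed adjustment. The first pair was lower and the second pair higher at Week 3, in the same notation.
Steap3 intron, chr1:120236350-120236496 (+): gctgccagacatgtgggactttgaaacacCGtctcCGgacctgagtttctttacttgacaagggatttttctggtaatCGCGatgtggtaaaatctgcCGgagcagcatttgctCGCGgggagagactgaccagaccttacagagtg
Sdk2 intron, chr11:113951698-113951877 (+): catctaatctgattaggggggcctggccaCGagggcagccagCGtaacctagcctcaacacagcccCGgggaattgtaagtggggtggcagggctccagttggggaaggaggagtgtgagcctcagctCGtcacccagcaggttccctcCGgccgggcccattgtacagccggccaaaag
between genes near Gm30713, chr8:125328001-125328170 (+): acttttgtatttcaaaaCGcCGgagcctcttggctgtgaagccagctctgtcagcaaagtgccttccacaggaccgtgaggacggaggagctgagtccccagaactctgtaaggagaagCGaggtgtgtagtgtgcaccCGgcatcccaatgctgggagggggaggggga
Epb41l1 intron, chr2:156460405-156460550 (+): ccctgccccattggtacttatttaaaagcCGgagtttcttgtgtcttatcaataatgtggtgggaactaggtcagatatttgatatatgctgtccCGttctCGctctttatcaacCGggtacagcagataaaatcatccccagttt
In the Steap3 stretch, from a tile chosen on its fall, all 11 measured cytosines were lower at Week 3. Its cytosine 81 bases from the start was at 37.6 ± 2.0% (SD, n = 3) in Week 1 and 10.2 ± 4.3% in Week 3. In the Epb41l1 stretch the cytosines 96 and 102 bases from the start stood at 51.6 and 63.1% in Week 1 and at 75.05 and 83.6% in Week 3, whereas the CCGG cytosine at 116 bases was at 21.2 and 22.7%.

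The last pair are the tiles with the most cytosines near cartilage genes, beside Tbx4, a T-box factor of the hindlimb, and within Col11a2, which encodes a chain of cartilage collagen XI.
between genes near Tbx4, chr11:85918101-85918348 (+): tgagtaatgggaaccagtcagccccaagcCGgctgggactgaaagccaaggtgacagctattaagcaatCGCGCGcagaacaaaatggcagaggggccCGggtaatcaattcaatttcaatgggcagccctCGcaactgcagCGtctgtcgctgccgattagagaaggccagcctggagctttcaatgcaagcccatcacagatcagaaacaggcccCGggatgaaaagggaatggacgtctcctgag
Col11a2 exon and intron, chr17:34062454-34062632 (+): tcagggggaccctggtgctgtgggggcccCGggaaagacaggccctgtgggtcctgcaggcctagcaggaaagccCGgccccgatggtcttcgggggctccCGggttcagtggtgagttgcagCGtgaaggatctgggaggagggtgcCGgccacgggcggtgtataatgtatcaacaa
The Col11a2 stretch covers a coding exon, and its CpG at 102 bases lies in a CCGG: the plus-strand cytosine was at 69.7 ± 3.4% (SD, n = 3) and the minus-strand cytosine at 0.0% in Week 1. In the Tbx4 stretch the 3 adjacent CpGs at 70, 72 and 74 bases were read on both strands and stood between 42.3 and 79.4%.

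**Figure D1:**
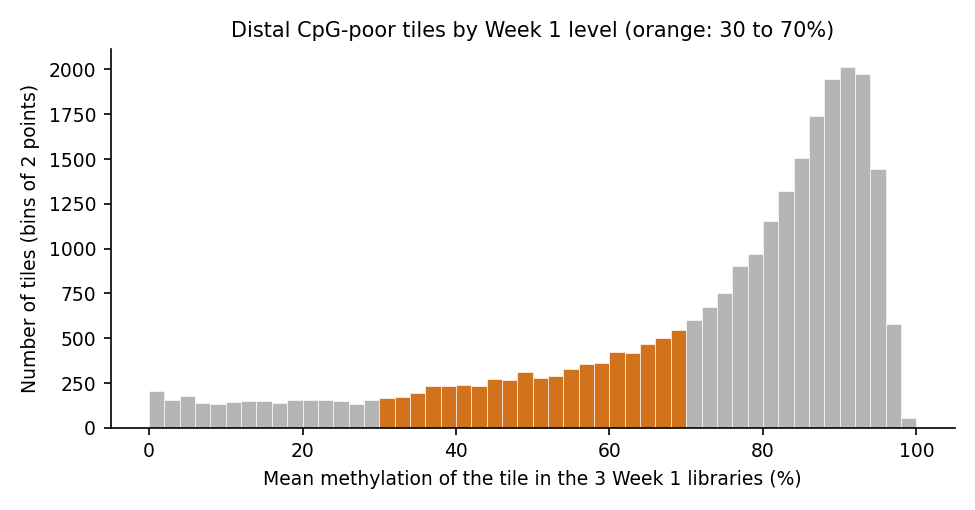
Number of distal CpG-poor tiles (y axis) by mean methylation in the 3 Week 1 libraries (x axis, %), in bins of 2 points, with the 6300 tiles at 30 to 70% in orange and the others in grey. Counts climb from 164 tiles at 30 to 32% to 545 at 68 to 70% and continue to rise above the limit, so the orange range holds no peak of its own.

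Intermediate levels formed no separate peak among distal tiles. The number of tiles climbed through the whole range, from 164 between 30 and 32% to 545 between 68 and 70%, and on to 602 between 70 and 72%. Week 3 means were 29.1% just inside and 27.7% just outside the lower limit, and 68.8 and 70.4% at the upper one. Neighbouring ranges of Week 1 level were compared, so close Week 3 means cannot show that these tiles are alike. Every cytosine lay between 20 and 80% in 24.4% of tiles inside and 17.2% outside the lower limit. At the upper limit these shares were 22.6 and 18.6%. A CCGG cytosine under 5% was held by 10.4% inside and 15.3% outside the lower limit, and 5.87 and 4.32% at the upper one. These shares were not tested. The members' median level in a library ran from 54.2 to 56.0%.

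The tiles held 27982 cytosines, with a median of 4 a tile and at most 20. Of the tiles, 2488 held exactly 3 cytosines and 172 held 10 or more. They lay in introns in 38.3% of cases, between genes in 46.6% and over an exon in 15.0%. Distal tiles over 70% overlapped an exon more often, in 23.8% of cases, and those under 30% less often, in 10.4%. The median distance of a member from the nearest 5′ end was 27.8 kb, against 29.7 kb for tiles over 70%, and 627 members lay 100 kb or more away.

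Repeats were less frequent in members than in highly methylated tiles. The share of masked bases, which RefSeq writes in lower case for interspersed and simple repeats, averaged 21.0% in members, 30.4% in tiles over 70% and 16.2% in tiles under 30%. Among distal tiles with at most 25% masked bases but some, 27.98% were members, against 12.3% of tiles that were more than 50% masked. The CpG number made less difference: 25.7% of tiles with up to 9 CpGs and 21.9% of those with 20 to 29 CpGs were members. Members were 22.0 to 26.1% of the distal tiles on every chromosome but chromosome 18, where they were 19.4%. These shares are descriptions without a test.

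Few members had a measured neighbour, since only 849 measured tiles lay next to one. Runs of 2 adjacent members numbered 135, and 1 run held 3. The 849 measured tiles next to a member had a median level of 69.9%, between the 83.3% beside tiles over 70% and the 23.8% beside tiles under 30%. Among neighbours of members, 35.0% were at 30 to 70% themselves and 15.3% were under 30%.

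Known factor motifs were searched on both strands of each 1 kb tile. The AP-1 motif TGANTCA was in 26.6% of members, 23.8% of distal tiles over 70%, 29.8% of those under 30% and 21.2% of all tiles. AP-1 is the dimer of FOS and JUN proteins. The RUNX motif TGTGGT was in 52.6% of members and the TEAD motif GGAATG in 45.4%, against 53.5 and 42.8% in tiles over 70%. The SOX motifs ACAAAG and ACAATG were in 58.4 and 39.3% of members, against 57.5 and 40.5%. The cyclic AMP motif TGACGTCA was rare, in 1.05 and 0.873%. The short motifs CANNTG and CCCTC were in 99.5 and 91.7% of members, shares that leave little room to differ. A match names letters only and says nothing of binding, and motifs may overlap.

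**Figure D2:**
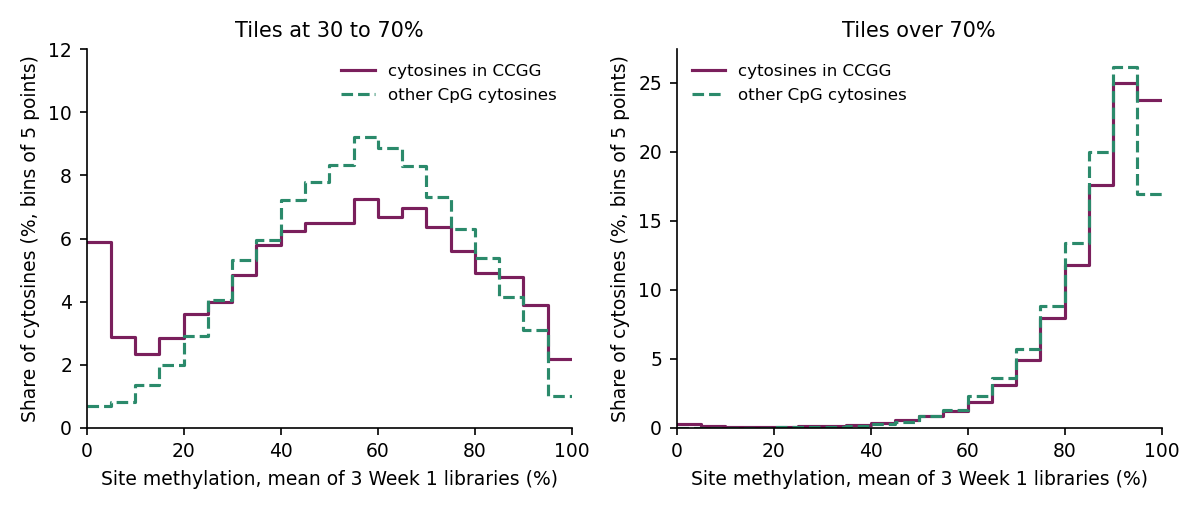
Share of cytosines (y axis, %, bins of 5 points) by Week 1 mean level (x axis, %) in the intermediate tiles (left) and in distal tiles over 70% (right), with cytosines of the CpG within CCGG as a solid line and other CpG cytosines as a dashed line. In intermediate tiles 5.90% of CCGG cytosines but 0.685% of the others lie under 5%.

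Most single cytosines of the members lay between 20 and 80%, a wider range than the 30 to 70% set for tiles. At Week 1, 75.5% of member cytosines lay between 20 and 80%, 9.75% under 20% and 14.8% over 80%. In tiles over 70% the share between 20 and 80% was 22.5%, and in tiles under 30% it was 27.0%. Levels chose the tiles, so a higher share in members follows in part from the rule. In single libraries, which have fewer reads, the share was 71.8 ± 3.65% (SD, n = 3) at Week 1 and 63.9 ± 11.47% at Week 3, where Week 3 replicate 2 alone had 50.7%.

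Cytosines of a tile resembled one another more when they lay close. Outside CCGG, the median difference between a pair of cytosines of 1 member tile was 12.9 points within 25 bases and 28.9 points beyond 300 bases. The same medians were 5.28 and 10.0 points in tiles over 70%. Sites within 25 bases share many of their reads.

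A cut at 20 and 80% split the members by their cytosines, and a tile with fewer cytosines more easily lies wholly inside it. In 2826 tiles (44.9%) every cytosine lay between 20 and 80%, and in 3474 (55.1%) at least 1 lay outside. In 1115 tiles (17.7%) 1 cytosine was under 20% while another was over 80%. The uniform tiles held a median of 3 cytosines and 18.1% masked bases, and the mixed ones 4 cytosines and 23.3%.

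Part of the mixture sat at the enzyme's own site. Of the 981 member cytosines under 5% at Week 1, 893 (91.0%) were in the CpG of a CCGG, which held 54.1% of all member cytosines. At CCGG CpGs read on both strands, 842 of 2207 (38.2%) differed by more than 50 points between the strands at Week 1 and 828 at Week 3. At other CpGs of the members 2 of 1335 did (0.150%). In tiles over 70% the shares were 4.38% of 2875 CCGG CpGs and 0.0774% of 3877 others. A CpG with 1 high and 1 low strand draws the mean of its tile towards the middle. Levels chose the tiles, so a higher share in members follows in part from the rule. MspI leaves ends that are filled in before ligation, and filled-in cytosines carry no methylation. The part of that step in these levels was not tested.

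Without CCGG cytosines most members could no longer be measured, so their levels were not checked in this way. Only 1698 members kept 3 or more cytosines, and of these 1436 (84.6%) were still at 30 to 70%, 223 were over 70% and 39 under 30%. Of the 747 members (11.9%) with a CCGG cytosine under 5%, 116 could be measured without CCGG, and 64 of those then lay over 70%. The tile 12.9 kb within Kcnab2 shown above held 3 such cytosines, and the Col11a2 tile held 1.

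**Figure D3:**
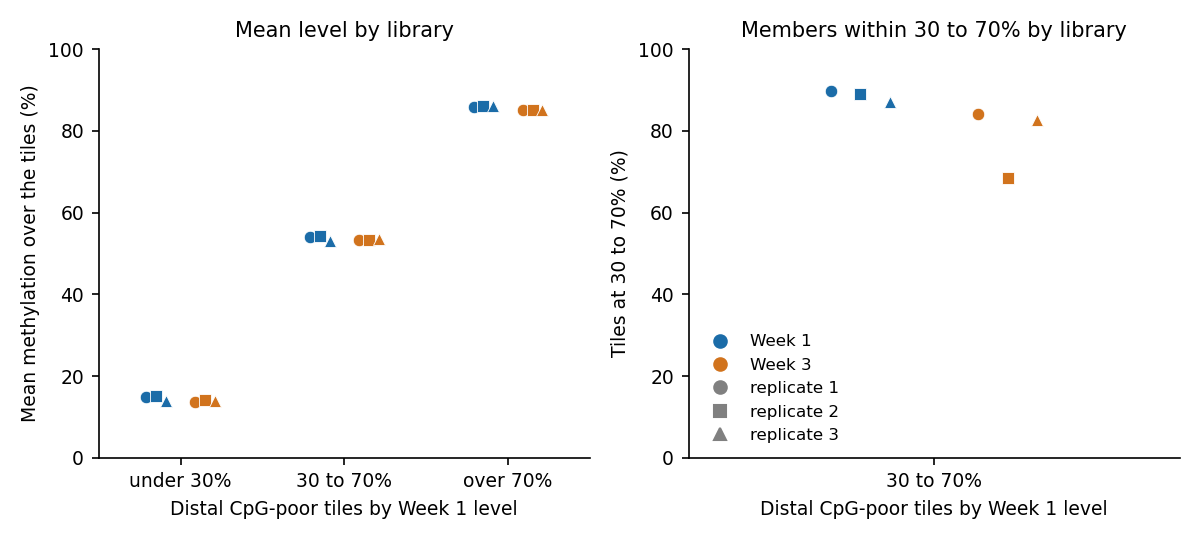
Left, mean methylation (y axis, %) in each library of distal CpG-poor tiles under 30%, at 30 to 70% and over 70% by their Week 1 level. Right, share of the intermediate tiles (y axis, %) at 30 to 70% in each library, where Week 3 replicate 2 lies at 68.4% and the other 5 at 82.6 to 89.9%. Colours mark weeks and shapes replicates.

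The mean level of the members was nearly the same in all 6 libraries. It was 54.0, 54.4 and 53.0% in the Week 1 libraries and 53.3, 53.3 and 53.5% in the Week 3 libraries. The weeks overlapped, and the difference of -0.411 points is given without a test because Week 1 levels chose the tiles. Tiles over 70% were at 86.0 ± 0.177% and then at 85.1 ± 0.0295% (SD, n = 3), a difference of -0.847 points. The members' difference less that of the tiles over 70% was 0.436 points, smaller than the Week 1 spread of the same quantity (SD 0.789 points, n = 3).

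Choosing tiles on all 6 libraries alike removes that asymmetry. It gave 6389 tiles with 54.8, 55.1 and 54.2% in Week 1 and 53.7, 52.7 and 53.9% in Week 3. All Week 3 libraries lay below all Week 1 libraries, and the difference was -1.26 points (exact two-sided permutation test, p = 0.1, the smallest that 3 against 3 libraries allow). The sign depended on the weight of very deep cytosines: with reads summed over all of these tiles the level was 55.1 ± 0.355% in Week 1 and 56.1 ± 0.522% in Week 3 (SD, n = 3). With the very deepest cytosines left out, the same sums gave 54.3 ± 0.389% and 53.4 ± 0.307%.

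Single tiles differed in both directions. Week 3 means were still at 30 to 70% in 5299 members (84.1%), under 30% in 337 and over 70% in 664. Without Week 3 replicate 2 these numbers were 5443, 294 and 563. A total of 2926 members (46.4%) were at 30 to 70% in each of the 6 libraries. Differences between the weekly means ranged from -36.1 to 31.4 points, with the middle 50% of tiles between -4.74 and 4.32.

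No tile passed the test. With edgeR's quasi-likelihood test on methylated and unmethylated reads, 0 of 71214 tiles had an adjusted p under 0.05 (0%), and so 0 members. An unadjusted p under 0.05 was found in 236 members (3.75%), against 3.61% of all tiles. limma on the mean percentages gave 503 members (7.98%) against 4.87%, and 0 after adjustment. edgeR's likelihood ratio test, which does not carry the uncertainty of the dispersion, called 12 members of 79 tiles in all (0.111% of those tested).

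Non-overlap between weeks was somewhat more frequent among members in the upward direction. All Week 3 libraries were below all Week 1 libraries in 439 members (6.97%), against 6.45% of all tiles. They were above in 357 members (5.67%), against 3.9%. The Week 3 mean was 10 points or more lower in 615 members (9.76%), against 4.13% of all tiles, and higher by as much in 426 (6.76%), against 2.09%. Without Week 3 replicate 2 these numbers were 439 and 269, against 2.77 and 1.21% of all tiles. The SD between libraries of 1 week was larger in members, where drawing reads alone also gives the most spread: its median was 4.81 points at Week 1 and 7.10 at Week 3, against 3.33 and 5.00 in tiles over 70%. Without Week 3 replicate 2 the members' Week 3 median SD was 3.85. As a ratio to the variance that drawing reads alone would give, the spread was not larger in members. The median ratio was 1.64 in members, 1.67 in tiles over 70% and 1.99 in tiles under 30% at Week 1, and 2.72, 2.86 and 3.08 at Week 3.

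**Figure D4:**
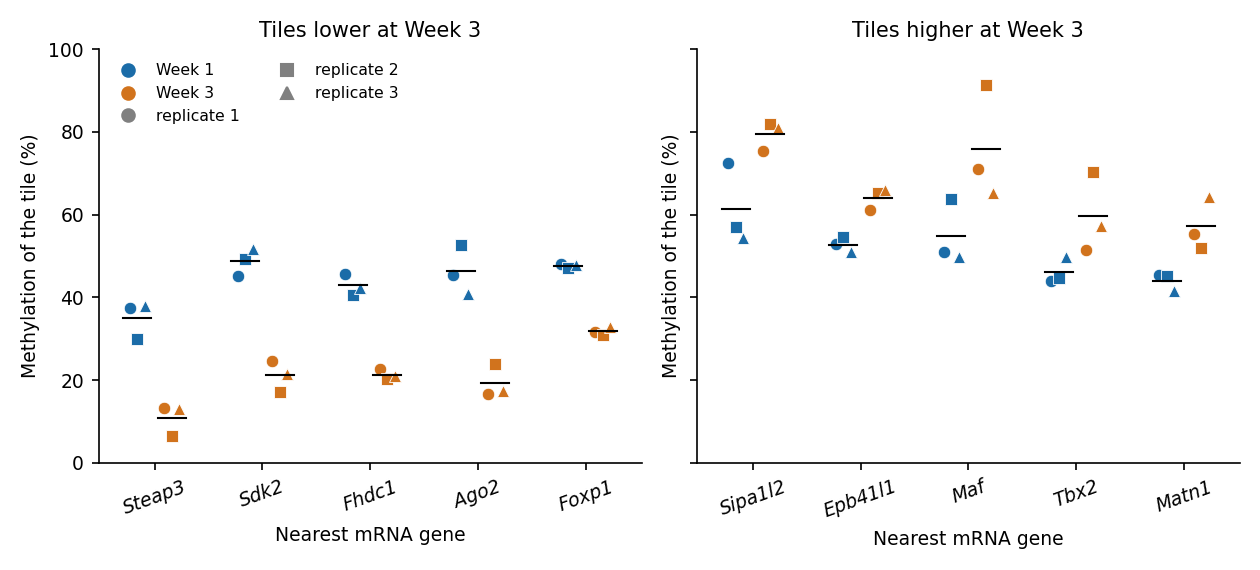
Methylation (y axis, %) in each library of the 5 tiles lower (left) and 5 higher (right) at Week 3 with the smallest p among tiles with 100 or more reads in each library and no overlap, labelled by the nearest mRNA gene. Horizontal lines are means of 3 libraries, colours mark weeks and shapes replicates. Week 3 levels of the lower tiles lie between 6.39 and 32.8% and Week 1 levels between 29.9 and 52.6%.

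The tiles that differed most clearly at good depth were 15.8 to 27.6 points lower or 11.4 to 21.0 points higher at Week 3. Of 1538 members with 100 or more reads in every library, 118 (7.67%) were lower and 95 (6.18%) higher at Week 3 without overlap. Of all 30348 tiles with as many reads, 6.71% were lower and 3.30% higher without overlap. The 5 members with the smallest p in each direction are described. None passed adjustment (adjusted p = 1 in edgeR's quasi-likelihood test for each), so they are values and not calls.

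The first lies in an intron of Steap3, an endosomal reductase of iron uptake, at chr1:120236001-120237000, 21.9 kb from its 5′ end. It was at 37.4, 29.9 and 37.9% in Week 1 and at 13.2, 6.39 and 13.04% in Week 3. All Week 3 libraries were well below all Week 1 libraries, with a difference of -24.2 points (edgeR, unadjusted p = 3.54e-05, adjusted p = 1). Steap3 RNA was 26.9 ± 4.83 CPM (SD, n = 3) in Week 1 and 38.2 ± 5.69 CPM in Week 3, a log2 change of 0.50 ± 0.15 (SE; edgeR, adjusted p = 0.0292). This call did not hold when Week 1 replicate 3 was left out (edgeR, adjusted p = 0.0600), nor without Week 3 replicate 2 (edgeR, adjusted p = 0.0765).

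The tile in an intron of Sdk2, a cell adhesion molecule of the immunoglobulin superfamily, lies at chr11:113951001-113952000. It was at 45.1, 49.3 and 51.7% in Week 1 and at 24.7, 17.2 and 21.4% in Week 3 (edgeR, unadjusted p = 0.000226, adjusted p = 1). The groups were separated by more than 20 points. A similar difference was seen in an intron of Ago2, the Argonaute protein that cleaves target RNA, at chr15:73149001-73150000. This tile was at 45.5, 52.6 and 40.9% in Week 1 and at 16.7, 23.8 and 17.5% in Week 3. Ago2 RNA itself was lower at Week 3, from 265.4 ± 28.4 to 212.0 ± 8.48 CPM (SD, n = 3; edgeR, adjusted p = 0.00893).

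The other lower tiles lie between genes. At chr3:84429001-84430000, 49.3 kb from Fhdc1, a formin-homology protein, levels were 45.7, 40.6 and 42.3% in Week 1 and 22.6, 20.2 and 20.9% in Week 3. At chr6:98727001-98728000, whose nearest mRNA gene is the forkhead factor Foxp1 at 299.99 kb, they were 48.1, 47.0 and 47.7% in Week 1 and 31.7, 31.0 and 32.8% in Week 3. Replicates of these tiles were close within each week, with SDs of 0.516 to 2.59 points. edgeR's likelihood ratio test called all 5 lower tiles (adjusted p from 5.20e-05 to 0.0114).

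The higher tiles had larger p than the lower ones. At chr2:156460001-156461000, in an intron of Epb41l1, a band 4.1 protein of the membrane skeleton, levels were 52.8, 54.5 and 50.9% in Week 1 and 61.2, 65.3 and 65.9% in Week 3 (edgeR, unadjusted p = 0.0204, adjusted p = 1). At chr8:125328001-125329000, 56.9 kb from the predicted gene Gm30713, they were 72.6, 56.9 and 54.5% in Week 1 and 75.5, 82.0 and 80.9% in Week 3. Week 1 replicate 1 of this tile lay close to the Week 3 libraries. The tile at chr4:131194001-131195000, whose nearest mRNA gene is the cartilage matrilin Matn1 at 249.6 kb, was at 45.3, 45.1 and 41.6% in Week 1 and 55.3, 52.0 and 64.2% in Week 3.

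In the other two higher tiles Week 3 replicate 2 was the highest library. At chr8:115632001-115633000, 73.9 kb from the transcription factor gene Maf and over an exon of Gm39256, levels were 50.9, 63.8 and 49.8% in Week 1 and 71.1, 91.4 and 65.2% in Week 3. The difference of 21.0 points was 13.3 without Week 3 replicate 2. At chr11:85800001-85801000, in an intron of Bcas3 and 31.6 kb from Tbx2, a T-box factor, levels were 44.1, 44.6 and 49.9% in Week 1 and 51.3, 70.3 and 57.3% in Week 3. Here the difference of 13.5 points was 8.17 without that library.

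Members were assigned to the gene of the nearest RefSeq 5′ end, which need not be the gene a distal element acts on. They fell to 4657 genes, of which 3563 had 1 member tile and 40 had 5 or more. Cdh13, an adhesion molecule anchored in the membrane by lipid, had the most: 11 of its 23 distal tiles, spread over 703 kb. Their mean was 54.6, 56.1 and 46.7% in Week 1 and 55.6, 50.3 and 57.2% in Week 3, with overlapping weeks. Ccdc167 had 7 of 9, and the predicted genes Gm31055, Gm39257 and Gm34145 had 10, 10 and 7.

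Distal tiles of cartilage genes were intermediate more often than distal tiles in general, by counts and without a test. Of the distal tiles nearest to cartilage and limb transcription factors, 29 of 87 (33.3%) were members, against 24.0% of all distal tiles. The shares were 10 of 31 (32.3%) for cartilage matrix genes, 14 of 38 (36.8%) for hypertrophy and mineralisation genes and 21 of 75 (28%) for cartilage signalling genes. Transcription factors of other lineages had 14 of 40 (35.0%), a share as high as those of the cartilage lists. Imprinted genes had 5 of 30 (16.7%), and AP-1 genes 1 of 8.

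The 74 member tiles of 53 cartilage-list genes did not move together. Their mean was 52.9, 53.2 and 51.3% in Week 1 and 51.7, 53.3 and 52.1% in Week 3, with overlapping weeks. Week 3 was below Week 1 in every library for 9 of the 74 tiles (12.2%, against 6.97% of all members and 6.45% of all tiles). It was above for 8 (10.8%, against 5.67% of all members and 3.9% of all tiles). The 9 lower tiles belong to Bmp4, Creb5, Dkk3, Fgfr1, Gdf6, Ihh and Irx5, with 2 to Smad3, and the 8 higher ones to Comp, Fgf18, Fgfr2, Runx2, Snorc, Sulf1, Tbx4 and Vegfa. These names were taken after their values were seen.

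The tile with most cytosines at each of 12 cartilage genes is described next, beginning with transcription factors. At Tbx4 (chr11:85918001-85919000, 21.2 kb away) levels were 54.4, 52.4 and 54.8% in Week 1 and 59.7, 69.2 and 54.8% in Week 3. The lowest Week 3 library and the highest of Week 1 were nearly equal. The 3 other member tiles of Tbx4 overlapped between weeks. Tbx4 RNA fell from 22.9 ± 0.941 to 17.9 ± 1.01 CPM (SD, n = 3; edgeR, adjusted p = 0.00766). 

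Irx5, an Iroquois homeobox gene, had 2 member tiles next but 1 to each other. The tile at chr8:92418001-92419000, with 10 cytosines, was at 71.2, 65.3 and 65.4% and then at 71.1, 55.8 and 66.5%, with overlap. The tile at chr8:92420001-92421000, with 3 cytosines, was at 59.4, 47.9 and 56.4% and then at 39.7, 23.9 and 40.5%, without overlap, a difference of -19.9 points. This tile was added after its values were seen. Irx5 RNA was 2.75 ± 0.781 CPM (SD, n = 3) in Week 1 and 19.1 ± 3.35 CPM in Week 3, a rise of 2.81 ± 0.21 on the log2 scale (SE; edgeR, adjusted p = 1.62e-05).

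At Dlx3, a homeobox gene of bone and skin, the tile at chr11:95101001-95102000 was at 66.3, 63.6 and 68.4% and then at 68.2, 74.9 and 69.6%, and the weeks overlapped slightly. Its RNA rose by 2.26 ± 0.23 on the log2 scale (SE; edgeR, adjusted p = 7.57e-05). The tiles of Gli2, a transcription factor of hedgehog signalling (chr1:119065001-119066000), and of Mef2d (chr3:88129001-88130000) also overlapped between weeks. The Gli2 tile with most cytosines was at 60.6, 60.1 and 61.9% and then at 63.0, 75.9 and 49.4%, the widest spread of the 12 at Week 3, an SD of 13.3 points. The other 2 member tiles of Gli2 overlapped between weeks too. Mef2d was at 67.3, 62.5 and 56.49% and then at 59.8, 58.5 and 61.9%.

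Among signalling genes the tile within Smad3, the intracellular transducer of TGF-beta signals, stood out. At chr9:63687001-63688000 it was at 51.2, 52.0 and 48.4% in Week 1 and at 26.9, 41.2 and 35.7% in Week 3 (edgeR, unadjusted p = 0.0387, adjusted p = 1). All Week 3 libraries were lower, with a difference of -15.96 points and of -19.3 to -12.1 with any 1 library left out. The second member tile of Smad3, at chr9:63698001-63699000, was at 63.3, 64.8 and 70.1% and then at 49.2, 61.4 and 58.5%, again without overlap. Smad3 RNA was 123.5 ± 11.51 CPM (SD, n = 3) and then 149.6 ± 9.59 CPM, a log2 change of 0.28 ± 0.08 (SE; edgeR, adjusted p = 0.0177; edgeR adjusted p = 0.0557 without Week 3 replicate 2). At Gdf6, a BMP family ligand of joints, the tile at chr4:9818001-9819000 was at 62.1, 62.1 and 62.4% and then at 59.9, 58.8 and 51.6%. At Dkk3 (chr7:112170001-112171000) levels were 31.0, 29.2 and 40.3% and then 27.6, 24.2 and 25.7%. Neither pair overlapped, and neither passed the unadjusted threshold (edgeR, adjusted p = 1 for both).

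In the tiles of Col11a2, Dcn and Mmp9 the weeks overlapped. The Col11a2 tile (chr17:34062001-34063000) was at 54.2, 55.9 and 48.3% and then at 55.3, 55.3 and 54.5%. The tile near Dcn, which encodes the proteoglycan decorin (chr10:97457001-97458000), was at 50.5, 52.8 and 47.5% and then at 42.1, 33.4 and 51.3%. The tile near Mmp9, a gelatinase (chr2:164927001-164928000), was at 54.1, 53.6 and 52.4% and then at 54.7, 53.9 and 49.9%. Col11a2 RNA had a log2 change of 0.76 ± 0.30 (SE; edgeR, adjusted p = 0.111), and adjusted p = 0.0361 with the replicate number as a block.

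Of the 5 members nearest to imprinted genes, whose alleles can differ in methylation, the 3 with most cytosines are given. The tile 186.5 kb from Dlk1 (chr12:109265001-109266000) was at 66.3 to 68.9% in Week 1 and 68.1 to 72.8% in Week 3. Of its 8 cytosines, 2 CCGG cytosines were under 5% while another was at 96.1%. The tile 169.8 kb from Ube3a (chr7:59058001-59059000) was 87.1% masked repeat. The tile in an intron of Kcnq1 (chr7:143412001-143413000) was at 32.3, 41.9 and 26.02% in Week 1 and at 34.1, 29.2 and 33.7% in Week 3. Its nearest 5′ end is that of Cdkn1c. The weeks overlapped in all 3 tiles, and alleles were not separated.

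Genes nearest to members changed in RNA more often than genes in general, as did genes nearest to other distal tiles. Of the 4657 genes, 1651 passed the filter on low counts in the RNA data. edgeR's quasi-likelihood test called 717 of them (43.4%, against 37.4% of all 14323 tested genes). Higher at Week 3 were 434 (26.3%, against 19.7%) and lower 283 (17.1%, against 17.8%). Genes nearest to distal tiles over 70% gave 41.3% and those nearest to tiles under 30% gave 44.3%, so members stood between them. In bulk pellets, fewer cells of a type and less RNA per cell cannot be told apart. With the nearest mRNA gene instead, 1118 of 2531 genes (44.2%) were called.

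**Figure D5:**
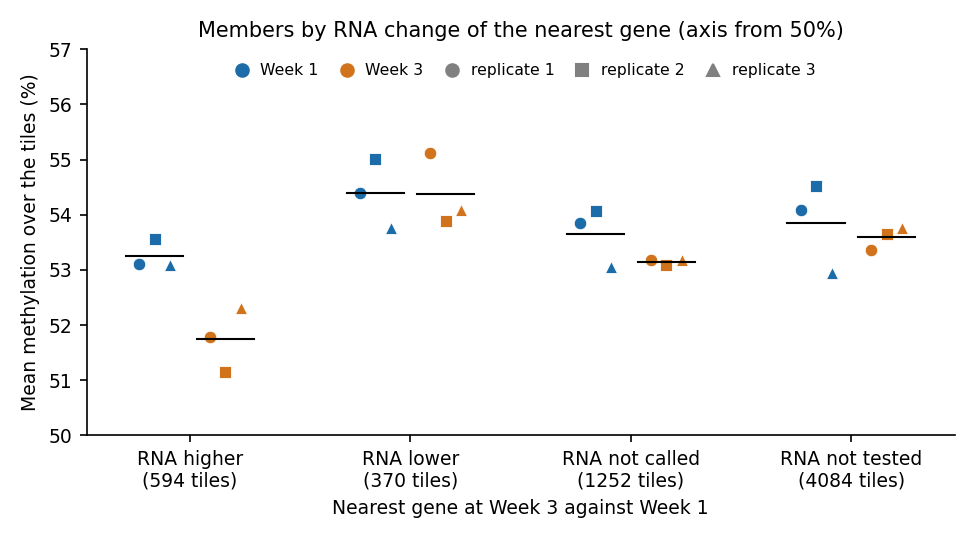
Mean methylation (y axis, %, from 50) of the intermediate tiles in each library, by the RNA result of the nearest gene at Week 3 against Week 1. Horizontal lines are means of 3 libraries, colours mark weeks and shapes replicates. The 594 tiles nearest to genes with higher RNA lie at 53.1 to 53.6% in Week 1 and 51.1 to 52.3% in Week 3, and the other groups overlap between weeks.

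Members nearest to genes with higher RNA at Week 3 were lower in methylation at Week 3, as were the other distal tiles nearest to such genes. The 594 members averaged 53.1, 53.6 and 53.1% in Week 1 and 51.8, 51.1 and 52.3% in Week 3, a difference of -1.51 points without overlap. Week 1 levels chose these tiles, so the difference is given without a test. The 370 tiles nearest to genes with lower RNA differed by -0.0194 points and the 1252 nearest to genes not called by -0.504, both with overlap. Week 3 means 10 points or more lower were seen in 14.3% of the first group, 10.5% of the second and 9.74% of the third.

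The difference between the groups was computed within each library. The mean of tiles near genes with higher RNA less that near genes with lower RNA was -1.28, -1.45 and -0.672 points in the Week 1 libraries. In the Week 3 libraries it was -3.35, -2.75 and -1.78 points. The change in this difference was -1.49 points, -1.43 without Week 3 replicate 2 and -0.985 with the nearest mRNA gene. Distal tiles over 70% differed by -0.910 and -0.706 points near genes with higher and lower RNA, both without overlap between weeks. Distal tiles below the members' range differed by -1.12 points near genes with higher RNA, also without overlap. Near genes with lower RNA those tiles differed by -1.02 points, with slight overlap. Tiles in a group share libraries and many share genes, so they are not replicates.

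The same groups were tested over the 6389 tiles chosen on all 6 libraries alike, an alternative added after the data were seen. Here the tiles near genes with higher RNA (606) differed by -2.22 points, those near genes with lower RNA (379) by -0.883 and those near genes not called (1275) by -1.44 (exact two-sided permutation tests, p = 0.1, 0.3 and 0.1, where 0.1 is the smallest possible). The change near genes with higher RNA less that near genes with lower RNA was -1.34 points (exact permutation test, p = 0.1). Less that near genes not called it was -0.778 points, with overlap between weeks (exact permutation test, p = 0.2). Without Week 3 replicate 2 this value was -0.466 points, and the difference near genes with lower RNA was -0.370 points. By the nearest mRNA gene every group fell without overlap. Tiles near genes with lower RNA differed by -0.875 points, near genes with higher RNA by -1.77 and near genes not called by -1.28 (exact permutation tests, p = 0.1 for each). The 6389 tiles together differed by -1.26 points.

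Among the 5 genes nearest to members with the largest RNA rises, Ihh had a tile that separated the weeks. Ihh, the hedgehog ligand of prehypertrophic chondrocytes, was at 0.967, 0.464 and 1.15 CPM in Week 1 and at 17.3, 25.8 and 21.2 CPM in Week 3. It rose by 4.65 ± 0.26 on the log2 scale (SE; edgeR, adjusted p = 3.93e-06). Its only distal tile, at chr1:75024001-75025000 in an intron of Nhej1, 72.3 kb upstream, was a member and was lower at Week 3 without overlap, at 51.9, 50.8 and 56.0% in Week 1 and 33.1, 30.7 and 36.9% in Week 3. The difference was -19.3 points (edgeR, unadjusted p = 0.0178, adjusted p = 1), and -21.0 to -17.8 with any 1 library left out. It rested on 3 cytosines.

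In the member tiles of the other 4 genes the weeks overlapped. Adamts18, a secreted metalloprotease, rose from 0.152 ± 0.161 to 30.1 ± 6.53 CPM (SD, n = 3; edgeR, adjusted p = 4.33e-06), and had 2 member tiles. The one at chr8:113762001-113763000 was at 29.1 to 39.9% and then 21.7 to 50%. The other, at chr8:113801001-113802000, was at 68.3, 75.6 and 48.9% and then at 82.7, 79.1 and 74.8%, 14.6 points higher on average. Entpd3, an ectonucleotidase, rose from 0.846 ± 0.470 to 53.0 ± 11.4 CPM (edgeR, adjusted p = 1.31e-05), with its tile at 51.8 to 75.5% and then 48.0 to 67.2%. Col13a1, a transmembrane collagen, rose from 0.494 ± 0.173 to 29.7 ± 3.13 CPM (edgeR, adjusted p = 6.70e-08). Its tile at chr10:62006001-62007000 was at 27.1, 31.7 and 35.1% and then at 31.7, 27.2 and 38.9%. Aldh1a3, an enzyme of retinoic acid synthesis, rose 14.3-fold (edgeR, adjusted p = 8.64e-05), and its tile overlapped between weeks, with means of 59.3 and 62.0%.

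Falls in RNA were smaller, and none of the tiles given separated the weeks. Atp6v0d2, a proton pump subunit of osteoclasts, went from 9.03 ± 3.03 to 1.51 ± 0.357 CPM (SD, n = 3; edgeR, adjusted p = 0.000213), with its tile at 57.5 to 68.1% and then 48.7 to 66.7%. The summed level of 5 macrophage and leukocyte markers, 3 of them above 1 CPM in every library, was 27.3 to 71.6 CPM in Week 1 and 11.7 to 47.9 CPM in Week 3, and its part in this fall was not tested. Cdh23, a cadherin, went from 21.8 ± 0.398 to 6.90 ± 2.01 CPM (edgeR, adjusted p = 9.73e-05) and had 5 members of 12 distal tiles. In each of the 5 members the weeks overlapped. Dusp4, a phosphatase of MAP kinases, Dlk1, a ligand related to Notch ligands, and Trank1 had log2 changes of -1.63, -1.49 and -1.46 (edgeR, adjusted p = 0.000338, 9.02e-06 and 1.90e-05). The Dusp4 tile was at 62.4 to 71.3% and then 47.6 to 64.7%, and the Trank1 tile at 27.1 to 47.1% and then 42.4 to 49.1%.

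By list, cartilage genes nearest to members mostly rose in RNA where they were called. Hypertrophy and mineralisation genes had 6 higher and 2 lower of 9 tested, cartilage matrix genes 5 and 0 of 8, cartilage signalling genes 10 and 2 of 18, and cartilage and limb transcription factors 8 and 2 of 16. Over all tested genes 19.7% were higher and 17.8% lower. The gene lists were chosen with earlier results of these data known, so these counts are descriptions and not an independent check. The hypertrophy and mineralisation list includes Adamts18, Entpd3 and Col13a1, with log2 changes of 7.63, 5.99 and 5.89. The calls of Dcn, Fgfr1, Lmx1b, Mmp9, Runx3, Sfrp1, Smad3 and Sulf1 were each lost in at least 1 fit without a library. Sp7 and Comp were picked from these lists after their values were seen. Sp7, a factor of bone formation, rose by 2.96 on the log2 scale (edgeR, adjusted p = 7.49e-06). Its member tile averaged 64.7% in Week 1 and 66.9% in Week 3. The tile near Comp, a matrix glycoprotein of cartilage, was higher at Week 3 without overlap, 63.6% against 74.1%, while Comp RNA rose by 1.09 on the log2 scale (edgeR, adjusted p = 0.00936).

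The RNA of the enzymes that write, read and remove methylation changed as well. Of 10 genes of the DNA methylation machinery, 5 were higher at Week 3 and 1 lower, against 19.7 and 17.8% of all tested genes. Tet1, which oxidises 5-methylcytosine, was at 32.8, 38.2 and 34.1 CPM in Week 1 and at 56.4, 79.0 and 54.4 CPM in Week 3 (log2 change 0.85 ± 0.15, SE; edgeR, adjusted p = 0.00302). Uhrf1, which recruits the maintenance enzyme to replicated DNA, went from 2.93 ± 0.722 to 6.39 ± 1.02 CPM (SD, n = 3; edgeR, adjusted p = 0.00193). Tet3 and Mbd2, a protein that binds methylated CpGs, were 1.35-fold and 1.19-fold higher (edgeR, adjusted p = 0.00716 and 0.00971).

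The de novo enzyme Dnmt3a was at 108.6, 83.8 and 107.1 CPM and then at 124.3, 135.9 and 129.1 CPM (edgeR, adjusted p = 0.0123; edgeR adjusted p = 0.0504 without Week 3 replicate 2). Tet2 was the lower one, at 212.0 ± 4.97 and then 185.6 ± 2.40 CPM (SD, n = 3; edgeR, adjusted p = 0.0128; edgeR adjusted p = 0.0603 without Week 3 replicate 1). The maintenance enzyme Dnmt1 did not pass, at 62.1 ± 3.94 and 71.3 ± 7.25 CPM (edgeR, adjusted p = 0.0805). Of 9 AP-1 genes 4 were lower and 0 higher, against 17.8 and 19.7% of all tested genes. The 4 were Fosb, Fosl1, Jun and Junb, and the Fosb call was lost in 4 of 6 fits without a library. Fosl1 went from 30.3 ± 1.497 to 16.2 ± 3.78 CPM (SD, n = 3; edgeR, adjusted p = 0.00194), and Jun from 68.03 ± 6.62 to 51.9 ± 6.39 CPM (edgeR, adjusted p = 0.0141). Methylation and RNA came from different libraries, and no relation between these genes and the tiles was tested.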

How the data were processed

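The data used were 6 ERRBS tables and 6 RNA tables, each with 3 libraries a week. Per the file headers, the deposited methylation tables give for each cytosine its coverage and the percentage of reads with C and T. Per the submitters' processing notes, the authors used Bismark for bisulfite reads, and STAR and featureCounts on mm10 to make the deposited RNA counts; their versions were not given in the sources used here. Counts are per RefSeq transcript, and a gene took its transcript with the highest total. The RNA kit does not mark strand, so antisense partners cannot be told apart. Cytosines with coverage of 10 or more in all 6 libraries were averaged in 1 kb tiles.

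Tiles were tested with edgeR 4.0.16 (R 4.3.3) on methylated and unmethylated reads, by the quasi-likelihood test with Benjamini-Hochberg adjustment over 71214 tiles. Unlike the planned single fit, which failed its check with known answers, tiles with mean levels of 10 to 90% were fitted apart from the rest. RNA was tested with edgeR (TMM, filterByExpr); limma 3.58.1 and DESeq2 1.42.0 were alternatives. Both tests were tested on simulated data. Genes and coordinates are from RefSeq release 108.20200622 (GRCm38).

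The members, gene lists and rules were chosen with earlier results of these data known. Named were up to 5 tiles a direction with the smallest p, 100 or more reads in each library and no overlap, 12 tiles of cartilage genes and 3 of imprinted genes with most cytosines, the 5 genes with most tiles, and the 5 largest called RNA rises and falls at 5 CPM or more without overlap. Same-numbered RNA samples deviated together (correlations of deviations 0.199 to 0.387). The labels do not give such pairs, and the main RNA test did not use them. For same-numbered ERRBS samples the correlations were positive but far weaker (0.0284 to 0.0740 over the members). Whether those samples are pairs is therefore not settled. Alternatives covered coverage, window, distance, CpG and site limits, the tile grid, merged strands, other tests, the replicate block and each library left out.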

Additional observations from a re-analysis of the deposited data

How the results depend on the processing

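The 3 libraries a week limit every test, and 2488 tiles rest on 3 cytosines. edgeR's likelihood ratio test called 12 members where the quasi-likelihood test called 0. The number of tiles was 1196 at coverage 20, 1658 without CCGG cytosines, 1315 with 6 sites, 2938 at 40 to 60%, 1711 beyond 50 kb and 2798 under 15 CpGs. The share of cytosines at 20 to 80% was 81.4% at coverage 20, 79.5% with strands merged, 85.0% without CCGG and 79.2% at 40 to 60%. The members' mean change was -1.26 points chosen on all 6 libraries and -2.05 chosen on Week 3; less the change of tiles over 70% it was -0.844 and -2.09. Reads summed over all tiles, an alternative chosen after seeing the data, gave 1.67, 4.26 and, reversed, 1.03 points for members, that difference and the set chosen on 6 libraries. The nearest mRNA gene gave 1118 called genes. The replicate block gave 822 called genes (49.8%, against 44.0% of all genes) and called 0 tiles. With same-numbered libraries taken as pairs, the change of the set chosen on 6 libraries had p = 0.25 (exact sign-flip test). With the very deepest cytosines left out, the summed reads gave -0.260 points for members and -0.874 for the set chosen on 6 libraries. The cause of the other shifts was not tested.

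With 1 library left out, the differences of these tiles took both signs, and none was called: Adamts18 -11.1 to 3.07, Trank1 -0.384 to 9.64, Cdkn1c -4.78 to 3.14, Aldh1a3 -1.90 to 7.46, Entpd3 -7.74 to 4.99, Mmp9 -1.42 to 0.994, Cdh23 -4.88 to 12.5, Ube3a -1.30 to 4.53, Irx5 -6.14 to 1.48, Mef2d -4.86 to 0.560, Col11a2 -0.0148 to 3.77, Gli2 -4.66 to 8.59, Col13a1 -1.84 to 3.99 and the tile near Gm30088 -4.80 to 2.78. Signs also turned without CCGG for Adamts18 (0.121), Irx5 (2.50), Gli2 (-0.0567) and Col13a1 (-0.685). They turned at coverage 20 for Cdkn1c (0.420), Mef2d (1.67) and the tile near Gm30088 (4.94), and with strands merged for Cdkn1c (0.147) and Kcnab2 (-0.270). Of the other values, 412 for tiles and 550 for RNA kept direction and side of the threshold. An RNA call was lost in 44 alternative fits, over 12 genes, and gained in 6, over 3 genes.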
